A study of Mus musculus with 15 samples.

Results

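Neuronal nicotinic acetylcholine receptor subunit genes were followed in mouse spinal motor neurons of 5 hind-limb motor pools. Each pool drives a single muscle or, for the foot, a muscle group. The 9 genes were taken by symbol (Chrna2, Chrna3, Chrna4, Chrna5, Chrna6, Chrna7, Chrnb2, Chrnb3 and Chrnb4) from a deposited table of 36814 genes, and all 9 were found in it. The genes share a family and a symbol, but the family was selected on its CPM in the medial against the lateral pools, so for these genes the difference between those pools is described and not tested.

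The 15 libraries came from wild-type mice at postnatal day 6, with 3 libraries per pool. The medial pools supplied the intrinsic foot muscles (IF) and the gastrocnemius (GS), and the lateral pools supplied tibialis anterior (TA), extensor digitorum longus (EDL) and peroneus longus (PL). Medial and lateral name the divisions of the lateral motor column, which send axons to the ventral and the dorsal limb. Per the labels, the muscle was injected with fluorescent cholera toxin B at day 4, and labelled neurons were cut from cord sections by laser. Each library pooled 30 to 40 cells of 2 to 5 animals. The labels do not link libraries to animals, so p-values measure the spread between these libraries, which may be partly technical. In such pooled samples, fewer cells that express a gene and less of its RNA per cell cannot be told apart.

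Nicotinic receptors are ion channels that acetylcholine opens, each built from several subunits around a pore. The alpha subunits carry the main face of the acetylcholine site and most beta subunits its other face, while Chrna5 and Chrnb3 code for accessory subunits that join other pairs. Chrna4 with Chrnb2 makes the common high-affinity receptor of the brain. Chrna3 with Chrnb4 makes the receptor of autonomic ganglia, often with Chrna5, and Chrna7 makes a channel of its own kind with high calcium flow. Motor neurons release acetylcholine at muscle and from axon branches within the cord, where Renshaw cells, inhibitory interneurons known for Chrna2, receive it.

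Gene counts summed to between 4417114 and 8488368 per library without 4 genes that had values below 0. In PL 2 and PL 3, 25.7% and 29.2% of the 14340 tested genes were at 0, against 0.732% to 13.7% in the other libraries. Isl1, a transcription factor of the medial division, was at 51.4 to 115 CPM (counts scaled to a fixed library size, by the TMM method of edgeR) in the 6 medial libraries. In the 9 lateral libraries it had 5 reads, all in EDL 2. Lhx1, a factor of the lateral division, was at 0 to 2.17 CPM in medial and 0 to 361 CPM in lateral libraries, so it did not mark every lateral library. The summed level of 8 motor neuron markers, Chat among them, was 4043 to 7717 CPM in medial and 4404 to 8779 CPM in lateral libraries. Every one of the 8 had reads in both divisions. Single markers were less even than the sum, and Chat averaged 83.3 CPM in IF, 149 in GS, 155 in TA, 114 in EDL and 405 in PL.

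Chrna3 was the member whose reads split the 2 divisions. It had 70.2, 57.7 and 57.4 CPM in IF 1, 2 and 3 and 21.6, 45.3 and 39.2 CPM in GS 1, 2 and 3. It had 0.339, 0.181 and 0.176 CPM in TA, 0, 0.226 and 0 in EDL, and 3.57, 0 and 0 in PL. All 6 medial libraries thus lay above all 9 lateral ones, and PL 1 was the highest lateral library. By mean CPM, and by RPKM, the order was IF, GS, PL, TA and EDL, with overlap among the 3 lateral pools and none between other neighbours. In reads this was 2202 in the medial libraries, 1548 in IF and 654 in GS. It was 39 in the lateral ones, 33 of them in PL 1, 4 in TA and 2 in EDL.

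Scaled to library size, the summed reads of the medial libraries were 77.0 times those of the lateral ones, with a 95% counting interval of 56.2 to 109 that covers counting error only. Without PL 1 the ratio was 423, with an interval of 194 to 1154. The fitted log2 difference, medial over lateral, was 7.21 ± 0.90 (SE), and 9.27 ± 0.84 without PL 1. The medial mean was 48.6 ± 17.0 CPM (SD, n = 6) and the lateral mean 0.500 ± 1.16 CPM (SD, n = 9). Of all tested genes, 0.195% had every medial library above every lateral one and 0.404% were called between the divisions by edgeR's quasi-likelihood test. Those shares are background only, since this contrast was known when the family was picked, and Chrna3 passed the filter on low counts through the medial libraries, so it had to differ.

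PL 1 had no Isl1 read beside its 33 Chrna3 reads. It was also the library with the largest total count. PL 2 and PL 3, with no Chrna3 read, had the fewest genes detected, and 3 counts there would stand at 0.958 and 0.662 CPM. The part of this in the result was not tested.

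**Figure D1:**
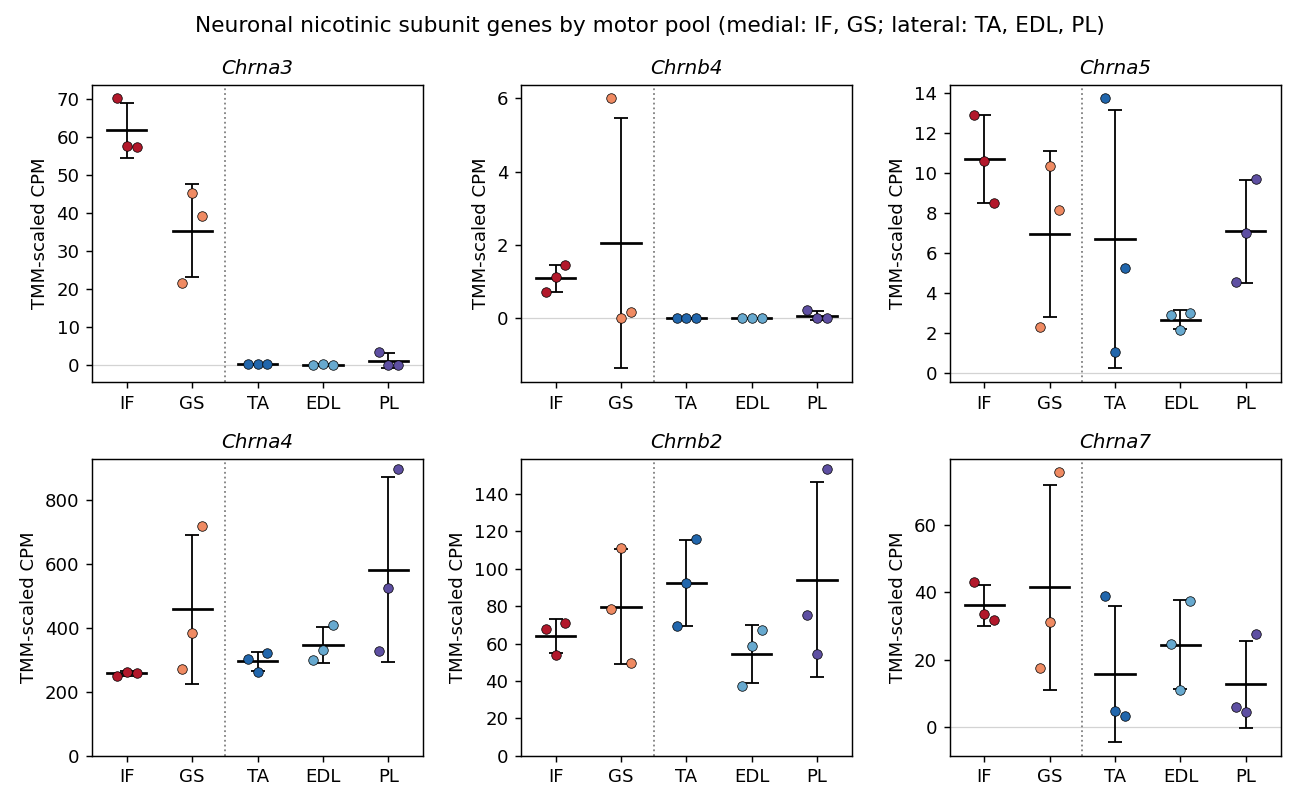
TMM-scaled CPM of 6 subunit genes in every library, with 1 point per library, a line at the pool mean and bars of 1 SD (n = 3); the dotted line parts the medial pools (IF, GS) from the lateral ones (TA, EDL, PL). Chrna3 runs from 21.6 to 70.2 CPM in the medial libraries and from 0 to 3.57 CPM in the lateral ones, while the points of Chrna4, Chrnb2, Chrna5 and Chrna7 overlap between the divisions.

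In the authors' deposited table of genes higher in IF than in TA, Chrna3 had a fold of 267.8, from authors' means of 408.6 in IF and 1.526 in TA. In the authors' deposited table of genes higher in IF than in EDL, its fold was 825, from means of 505.3 in IF and 0.6125 in EDL. None of the other 14 of the 16 tables analysed held a member of the family. Among these were the tables of genes higher in GS than in TA, with 20 genes, and higher in IF than in PL, with 8. No table analysed compared GS with EDL or PL.

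Within the medial division, Chrna3 was at 61.8 ± 7.26 CPM in IF and 35.4 ± 12.3 CPM in GS (SD, n = 3 each). The 3 IF libraries lay above the 3 GS libraries, but the fit did not call the difference. The log2 difference, IF over GS, was 0.80 ± 1.14 (SE; edgeR quasi-likelihood, Benjamini-Hochberg adjusted p = 1.00), so the standard error was larger than the difference. That error rests on a spread fitted over all 15 libraries, the lateral ones with few Chrna3 reads included, and not on IF and GS alone. Groups without overlap were common in this comparison, at 23.7% of all tested genes.

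Chrna3 lies on chromosome 9 of mm9 from 54859150 to 54874367 on the minus strand. It stands between Chrna5, from 54828687 to 54855587 on the plus strand, and Chrnb4, from 54875963 to 54896352 on the minus strand. In the deposited gene models the gaps are 3563 bases to Chrna5 and 1596 bases to Chrnb4. Chrna5 and Chrna3 run towards each other, and their RefSeq models overlap at the 3′ ends. The libraries do not mark strand, so a read from beyond the end of a model cannot be assigned to 1 of the pair.

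The neighbours did not share the level of Chrna3. The 250 bases before the RefSeq start of Chrna3, of its neighbour Chrnb4 and of Chrna4, the most abundant member in every library, are shown to set the unlike members side by side (5′ to 3′ on the strand of the gene, build GRCm38.p6). Capitals mark GGGCGG on either strand, the core of the GC box to which Sp1-type factors bind. The stretches are chr9:55026563-55026812 (minus strand) for Chrna3, chr9:55048545-55048794 (minus strand) for Chrnb4 and chr2:181039178-181039427 (minus strand) for Chrna4.
Chrna3: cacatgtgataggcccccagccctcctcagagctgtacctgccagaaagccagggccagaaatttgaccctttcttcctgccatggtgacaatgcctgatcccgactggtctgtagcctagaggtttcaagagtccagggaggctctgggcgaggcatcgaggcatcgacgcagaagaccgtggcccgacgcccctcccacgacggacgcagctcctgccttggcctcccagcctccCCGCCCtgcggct
Chrnb4: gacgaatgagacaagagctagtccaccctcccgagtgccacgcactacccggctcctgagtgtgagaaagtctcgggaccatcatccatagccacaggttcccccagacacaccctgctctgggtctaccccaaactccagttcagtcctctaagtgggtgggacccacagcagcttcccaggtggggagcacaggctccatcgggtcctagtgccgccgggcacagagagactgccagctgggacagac
Chrna4: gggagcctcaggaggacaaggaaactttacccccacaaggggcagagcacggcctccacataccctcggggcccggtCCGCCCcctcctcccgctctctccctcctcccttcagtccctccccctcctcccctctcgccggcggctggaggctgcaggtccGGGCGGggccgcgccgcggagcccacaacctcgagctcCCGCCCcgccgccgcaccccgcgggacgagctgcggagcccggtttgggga

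The stretch of Chrna3 held 1 such match, that of Chrnb4 held 0 and that of Chrna4 held 3. The other neighbour, Chrna5, has 2 starts in that table, with 0 and 4 matches before them at a G and C content of 40.0% and 65.2%. Of all stretches, 32.7% of the 32851 of the same length in the RefSeq table held at least 1. The G and C content was 63.2% for Chrna3, 61.2% for Chrnb4 and 74.4% for Chrna4, against a median of 52.4%. None of these stretches, those of Chrna5 included, held TATAAA or the homeodomain core TAATTA on either strand, which 12.4% and 4.84% of all stretches held. Of the 9 members, 6 had an entry in that table.

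Chrnb4, the usual partner of Chrna3 in autonomic ganglia, stayed near the limit of detection. It had 0.713, 1.12 and 1.45 CPM in IF, from 7, 9 and 10 reads. In GS it had 5.99, 0 and 0.163 CPM, where GS 1 alone held 41 of the 42 reads. It had no read in TA or EDL and 2 reads in PL 1, the lateral library with the Chrna3 reads. All 3 IF libraries held reads, while in GS the level rested on 1 library. IF 1, 2 and 3 and GS 1 were also the libraries with the most genes detected, at 16429 to 17321. Every other library, GS 2 and GS 3 included, had at most 15320, and the part of this in the Chrnb4 reads was not tested. The medial libraries held 68 reads and the lateral ones 2, a ratio of 46.4 once scaled to library size, with a 95% counting interval of 12.4 to 391. Without GS 1, 27 medial reads were left and the ratio was 21.9, with an interval of 5.49 to 190. Without PL 1 no lateral read was left. Against 3 counts over that group the medial level was 26.1-fold higher, with GS 1 kept and counting error of the medial reads left out. GS 1 had the lowest Chrna3 level of the medial libraries, so among the GS libraries the highest Chrnb4 level stood beside the lowest Chrna3 level. Chrnb4 did not pass the filter on low counts and was not tested.

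Chrna5, the accessory subunit encoded on the other side of Chrna3, was low in every pool. It was at 12.9, 10.6 and 8.54 CPM in IF and 2.34, 10.4 and 8.16 CPM in GS. It was at 13.7, 1.08 and 5.28 CPM in TA, 2.90, 2.15 and 3.01 CPM in EDL, and 4.55, 7.03 and 9.71 CPM in PL. The divisions overlapped, and the highest library of all was TA 1. Medial over lateral, the log2 difference was 0.77 ± 0.71 (SE). By mean CPM the order was IF, PL, GS, TA and EDL, and each neighbour in that order overlapped the next. By RPKM (reads scaled to gene length and library size, as deposited) it was IF, GS, TA, PL and EDL.

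Chrna4 was the most abundant member in every library, also per length. In CPM it was at 249, 263 and 260 in IF and 271, 384 and 719 in GS. It was at 304, 263 and 321 in TA, 300.1, 331 and 408 in EDL, and 327, 524 and 896 in PL. The divisions overlapped widely, with a log2 difference of -0.19 ± 0.24 (SE) for medial over lateral. By RPKM the medial mean was the higher, at 40.3 against 36.2 in the lateral libraries. GS 3 and PL 3 were the highest libraries. By mean CPM the order was PL, GS, EDL, TA and IF, and among neighbours in that order TA and IF alone had libraries that did not overlap. By mean RPKM it was GS, PL, EDL, IF and TA. The library sizes set by TMM lay below the total counts in PL 2 (3130777 against 4417114) and PL 3 (4532553 against 6779691). They lay above the total counts in the IF libraries, as in IF 1 (9820733 against 8258781). The part of this scaling in the CPM order was not tested. IF had the narrowest spread, at 257 ± 7.13 CPM, against 458 ± 233 CPM in GS (SD, n = 3 each). That was not particular to Chrna4, as the IF libraries also differed least from each other over all genes. Their chi-square per degree of freedom, where counting noise alone gives about 1, was 12.0 to 16.7 between pairs, against 47.3 or more in every other pool. The IF libraries lay below the GS libraries, with a log2 difference, IF over GS, of -0.83 ± 0.38 (SE; edgeR quasi-likelihood, Benjamini-Hochberg adjusted p = 1.00, unadjusted 0.0408). Without GS 3 it was -0.33.

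Chrnb2, the usual partner of Chrna4, was at 67.8, 53.9 and 71.0 CPM in IF and 78.4, 111 and 49.5 CPM in GS. It was at 69.4, 92.3 and 116 CPM in TA, 37.4, 58.8 and 67.5 CPM in EDL, and 75.3, 54.3 and 153 CPM in PL. The divisions overlapped, at -0.13 ± 0.33 (log2, SE) for medial over lateral, and the difference turned to 0.06 without PL 3. Here too the medial mean was the higher by RPKM, at 7.75 against 6.58 in the lateral libraries. By mean CPM the order was PL, TA, GS, IF and EDL, with overlap between all neighbours, and by mean RPKM it was GS, IF, TA, PL and EDL. Per length, the RPKM of Chrna4 was 3.02 to 15.9 times that of Chrnb2 within a library. The lowest ratio was in TA 3 and the highest in GS 3, where Chrna4 was high and Chrnb2 low.

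Chrna7 had the widest ratio of highest to lowest library among the 4 members with reads in all libraries. It was at 43.1, 33.6 and 31.7 CPM in IF and 17.5, 31.2 and 75.7 CPM in GS. It was at 39.0, 4.70 and 3.34 CPM in TA, 24.7, 11.1 and 37.5 CPM in EDL, and 5.96, 4.47 and 27.6 CPM in PL. No medial library was below 17.5 CPM, but 4 of the 9 lateral libraries were above that level too. The log2 difference, medial over lateral, was 1.19 ± 0.62 (SE). By mean CPM the order was GS, IF, EDL, TA and PL, with overlap between all neighbours, and by RPKM IF stood before GS.

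Chrna2, Chrna6 and Chrnb3 were all but undetected. Chrna2 had 2 reads, both in GS 1, Chrnb3 had 1 read, in IF 1, and Chrna6 had none in any of the 15 libraries. For Chrna6 a count of 0 allows a level of up to 0.0291 CPM over all libraries (3 counts, counting error only). Chrna6 and Chrnb3 lie side by side on chromosome 8 of mm9, from 28513686 to 28524417 and from 28479183 to 28510202. Of the 9 members, 5 passed the filter on low counts, and Chrna2, Chrna6, Chrnb3 and Chrnb4 did not.

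Set per length, the share of the summed RPKM of the 9 members put the pools side by side. Chrna4 and Chrnb2 together made up 63.4%, 68.0% and 69.7% in IF and 83.9%, 79.9% and 82.9% in GS. They made up 84.9% to 98.0% in TA, 91.1% to 96.0% in EDL and 95.2% to 97.2% in PL. Chrna3 made up 22.6%, 19.9% and 19.5% in IF and 8.36%, 11.8% and 6.72% in GS, against at most 1.36% in a lateral library. In IF, Chrna3 thus ranked second after Chrna4 in all 3 libraries. Chrna7 made up 4.66% to 9.51% in medial and 0.823% to 9.78% in lateral libraries. The summed RPKM itself was 52.7 to 89.7 in medial and 31.6 to 69.0 in lateral libraries.

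**Figure D2:**
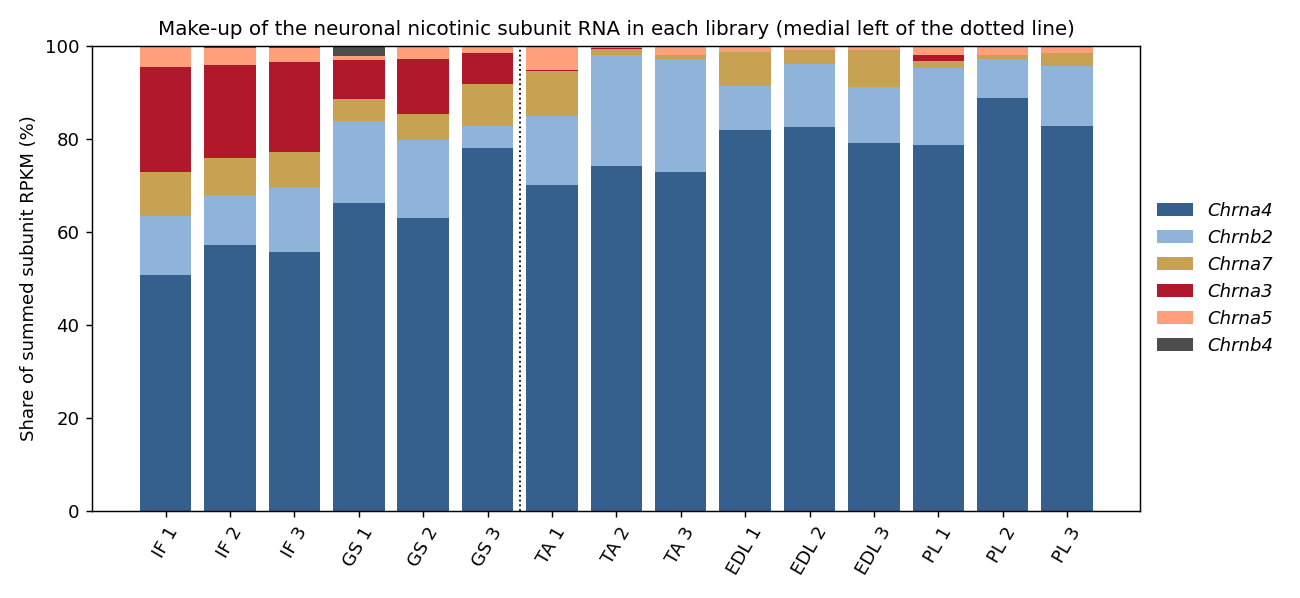
Share of each subunit gene in the summed RPKM of the 9 members, in percent, with 1 bar per library; medial libraries stand left of the dotted line, and Chrna2, Chrna6 and Chrnb3, at or near 0, are not drawn. Chrna3 takes 6.72% to 22.6% of the medial bars and at most 1.36% of a lateral bar, and Chrna4 takes the largest share in every library.

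The family was picked on the medial against the lateral pools, and whether values within a division also played a part is not known. Comparisons within a division were tested across all 14340 genes with edgeR's quasi-likelihood test. None of the 5 tested members was called between IF and GS, where 0.126% of all genes were called. Chrna3 entered the tests through its medial reads, so it is left out of the 3 lateral comparisons. Of the other 4, 0 were called in TA against EDL (0.0907% of all genes), 0 in PL against EDL (0.0488%) and 0 in PL against TA (0.23%). With no adjustment, 1 of 5 members had p under 0.05 in IF against GS (4.46% of all genes). Of 4 members, 0 did in TA against EDL (8.65%), 0 in PL against EDL (15.2%) and 1 in PL against TA (17.3%).

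DESeq2 also called 0 members in each comparison, where it called 0.481% of all genes in IF against GS, 1.58% in TA against EDL, 4.81% in PL against EDL and 7.96% in PL against TA. Its unadjusted p was under 0.05 for 1 member, in PL against TA (22.1% of all genes). It was so for 0 members in IF against GS (5.53%), TA against EDL (10.7%) and PL against EDL (19.8%). limma voom called 0 members, against 0.23%, 0.384%, 0.0697% and 0.418% of all genes in the order IF against GS, TA against EDL, PL against EDL and PL against TA. By limma voom no member had an unadjusted p under 0.05, against 5.79%, 9.76%, 17.4% and 15.2% of all genes in that order.

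The median log2 difference of the 5 members was -0.20 in IF against GS, where that of all tested genes was -0.04. Over 4 members it was 0.27 in TA against EDL (all genes -0.00), 0.77 in PL against EDL (all genes -0.08) and 0.05 in PL against TA (all genes -0.01). The 3 lateral comparisons share libraries.

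In TA against EDL the smallest p was that of Chrnb2, at 92.5 ± 23.2 CPM in TA and 54.6 ± 15.5 CPM in EDL (SD, n = 3 each; log2 difference 0.76 ± 0.51, SE; edgeR adjusted p = 0.779). In PL against EDL it was that of Chrna4, at 582 ± 289 CPM in PL and 346 ± 55.9 CPM in EDL (SD, n = 3 each; 0.75 ± 0.38, SE; edgeR adjusted p = 0.351). Without PL 2 and PL 3 that difference was -0.09. In PL against TA it was again that of Chrna4, at 582 ± 289 CPM in PL and 296 ± 29.8 CPM in TA (SD, n = 3 each). That log2 difference was 0.98 ± 0.38 (SE; edgeR adjusted p = 0.215), and without PL 1 it was 1.24 with adjusted p = 0.0366, in a fit that called 12% of all genes there.

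Groups that did not overlap were Chrna3 and Chrna4 in IF against GS (23.7% of all genes did not overlap). They were Chrnb2 in TA against EDL (15.5%), Chrna5 in PL against EDL (14.6%) and Chrna4 in PL against TA (10.2%).

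**Figure D3:**
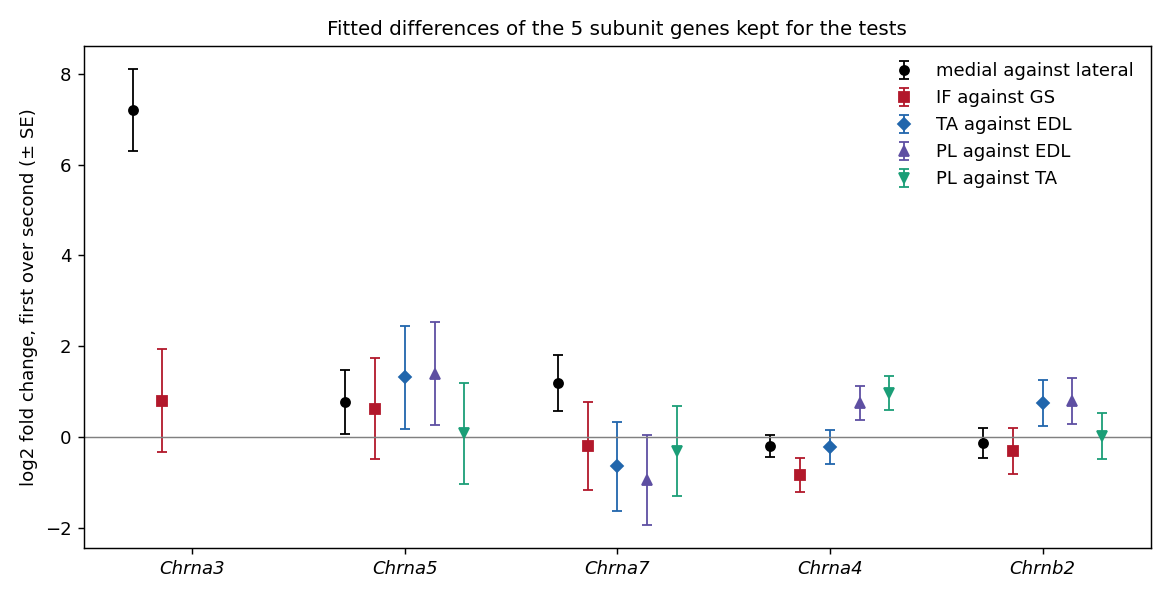
Fitted log2 fold change of the 5 tested subunit genes in each comparison, first group over second, with bars of 1 SE from 1 edgeR fit of all 15 libraries. Medial against lateral is a description; Chrna3 stands at 7.21 there and is not drawn for the lateral comparisons, and in the 4 comparisons within a division no gene was called.

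Other cells in the captured area were read from marker lists. The summed level of 6 oligodendrocyte markers was 155 to 516 CPM in medial and 355 to 2268 CPM in lateral libraries, and all 6 had reads in both divisions. That of 5 astrocyte markers, all read in both divisions, was 209 to 514 CPM in medial and 396 to 971 CPM in lateral libraries. The sum of 8 markers of Renshaw cells and other inhibitory interneurons was 24.0 to 211 CPM in medial and 21.3 to 364 CPM in lateral libraries. All 8 had reads in medial and 7 in lateral libraries. The 3 excitatory interneuron markers summed to 31.2 to 55.3 CPM in medial and 9.90 to 198 CPM in lateral libraries, with reads of 2 of 3 in medial and 3 of 3 in lateral ones. PL 1 was at 167 CPM. Microglial markers reached 32.3 CPM in medial and 38.1 CPM in lateral libraries, endothelial markers 29.8 CPM in medial and 80.0 CPM in lateral ones, and fibroblast markers 21.7 CPM in medial and 208 CPM in lateral ones. Oligodendrocyte and astrocyte sums overlapped between the divisions but reached higher in the lateral one, and the part of these cells in the levels of the subunit genes was not tested.

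Likeness of pattern was measured as Pearson's r of log2(CPM + 1) over the 15 libraries and is a description. Libraries of 1 pool share their source, and all libraries differ in depth. Nearest to Chrna4 were Rad23b (r = 0.896), Cldnd1 (0.888), Smpd1 (0.885) and Vegfc (0.878). Nearest to Chrnb2 were Dennd1b (0.877), Nckap5 (0.862), Strbp (0.848) and Cnot4 (0.844). Nearest to Chrna7 were Cdk5rap3 (0.916), Fam86 (0.819), Sh3bp5 (0.818) and Evl (0.817). Chrna3 was added after its values were seen. Its nearest genes by the same measure were Isl1, Camk2a, Clic6 and Trpc4, with no r given because its libraries fall into separate clusters by division. Camk2a, a calmodulin kinase, was at 77.9 CPM in medial and 5.96 CPM in lateral libraries on average, and Trpc4, a cation channel, at 9.30 CPM in medial and 0.0638 CPM in lateral ones. Between the other 4 tested members, r ran from -0.241 for Chrna7 and Chrnb2 to 0.512 for Chrna5 and Chrna7. Chrna4 and Chrnb2, which form a receptor together, had an r of 0.228.

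The remaining nicotinic subunit genes are those of muscle and hair cells. Of these 7, Chrna9, Chrnd and Chrng had no read, Chrna10 had 4 reads and Chrne 8, each in 1 IF library. Only Chrna1 and Chrnb1, muscle subunits, were tested, and edgeR called neither in any of the 5 comparisons. Chrna1 had 51 reads in the medial and 25 in the lateral libraries, none of them in PL. Chrnb1 had 71 reads in the medial and 50 in the lateral ones. The smallest adjusted p in the edgeR test was 0.227 for Chrna1 in PL against TA, and 0.323 for Chrna1 in medial against lateral. In the lateral libraries Chrna3 averaged 0.500 CPM and Chrnb1 0.816 CPM.

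Muscarinic receptors, which answer acetylcholine through G proteins, gave a second view of cholinergic input. Of 5 genes, 3 were tested, and edgeR called 0 of them in any comparison. DESeq2 called Chrm2 in TA against EDL and in PL against EDL, where it called 1.58% and 4.81% of all genes. Chrm2, which couples to inhibitory G proteins, was the abundant one. It was at 519, 339 and 541 CPM in TA and 127, 148 and 205 CPM in EDL, with no overlap. The log2 difference, TA over EDL, was 1.55 (edgeR adjusted p = 0.170), and the DESeq2 adjusted p was 0.0260. PL was at 283, 664 and 413 CPM, also above EDL, with a difference of 1.50 (edgeR adjusted p = 0.159). The DESeq2 adjusted p was 0.0153, and without PL 1 edgeR gave 0.00928, in a fit that called 11.9% of all genes there. In IF it was at 311 ± 43.9 CPM and in GS at 328 ± 124 CPM (SD, n = 3 each).

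Chrm3, which couples to calcium release, was at 7.27 ± 1.22 CPM in IF and 30.8 ± 28.1 CPM in GS (SD, n = 3 each; edgeR adjusted p = 1.00). Its mean was 19.0 CPM in medial and 3.78 CPM in lateral libraries, with a log2 difference of 2.02 ± 0.87 (SE; adjusted p = 0.397). Chrm5 had 114 reads in IF and 4 in GS (edgeR adjusted p = 1.00), 10 in EDL, 18 in PL and none in TA. In medial against lateral it had adjusted p = 0.491. Chrm1 and Chrm4 had 44 and 70 reads in all and were not tested.

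Of 19 genes that help nicotinic receptors to assemble or bind to them, 17 were in the table and 14 were tested. Of these, edgeR called 1, Lypd1, whose lynx-type protein binds and dampens nicotinic receptors. It had 341, 763 and 441 CPM in PL and 27.6, 9.03 and 2.81 CPM in TA. Every PL library lay far above every TA library. The log2 difference, PL over TA, was 5.29 ± 0.74 (SE; edgeR adjusted p = 0.00196), in a comparison where 0.167% of all genes were called higher. EDL stood between them at 48.0, 48.4 and 56.4 CPM, and PL over EDL was 3.34 (edgeR adjusted p = 0.0796). DESeq2 called that difference with adjusted p = 0.000205, in a comparison where it called 4.81% of all genes. Without PL 1, edgeR also called it (adjusted p = 0.00768), in a fit that called 11.9% of all genes there.

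Lypd1 was at 204 ± 42.8 CPM in IF and 95.8 ± 72.1 CPM in GS (SD, n = 3 each; edgeR adjusted p = 1.00). Its mean was 150 ± 79.6 CPM in medial and 193 ± 266 CPM in lateral libraries. The fitted log2 difference, medial over lateral, was 0.99 ± 0.39 (SE; adjusted p = 0.338), of the opposite sign to the difference of those means, as the fit averages log levels over pools. In the authors' deposited tables Lypd1 was higher in IF than in TA with a fold of 15.63 and higher in IF than in EDL with a fold of 4.009.

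Lynx1, another such protein tethered to the membrane, was far more abundant. It was at 1480, 1462 and 1557 CPM in IF and 1520, 1473 and 1504 CPM in GS. It was at 2521, 1772 and 2334 CPM in TA, 2019, 2251 and 1566 CPM in EDL, and 1590, 3374 and 3564 CPM in PL. By CPM all medial libraries lay below all lateral ones, and 0.314% of all tested genes did not overlap in either direction. By deposited RPKM the divisions overlapped, at 183 to 251 in medial and 197 to 341 in lateral libraries. EDL 3, at 1566 CPM, came close to the highest medial library, IF 3. The log2 difference, medial over lateral, was -0.62 ± 0.18 (SE; edgeR adjusted p = 0.142), which did not pass the threshold of 0.05. Without PL 1 it was -0.69 with adjusted p = 0.0110, in a fit that called 4% of all genes.

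Ric3, a chaperone of nicotinic receptor assembly, was at 108 ± 3.91 CPM in IF, 157 ± 18.9 in GS, 94.9 ± 25.6 in TA, 104 ± 38.5 in EDL and 80.6 ± 19.9 in PL (SD, n = 3 each). edgeR did not call it in any comparison. Tmem35, the chaperone known as NACHO, averaged 69.8 CPM in IF, 49.3 in GS, 62.6 in TA, 45.0 in EDL and 39.0 in PL, where PL 3 had 0.441 CPM. Medial against lateral, 8 of the 14 tested genes of this list lay above 0 with a median log2 difference of 0.27, against a median of 0.02 over all genes, and 0 were called. Above 0 were 6 of the 14 in IF against GS, 8 in TA against EDL, 7 in PL against EDL and 6 in PL against TA. Among the genes with the smallest p in a comparison were also Ywhah in IF against GS, with an edgeR adjusted p of 1.00, and Ly6h in TA against EDL, with 0.479.

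**Figure D4:**
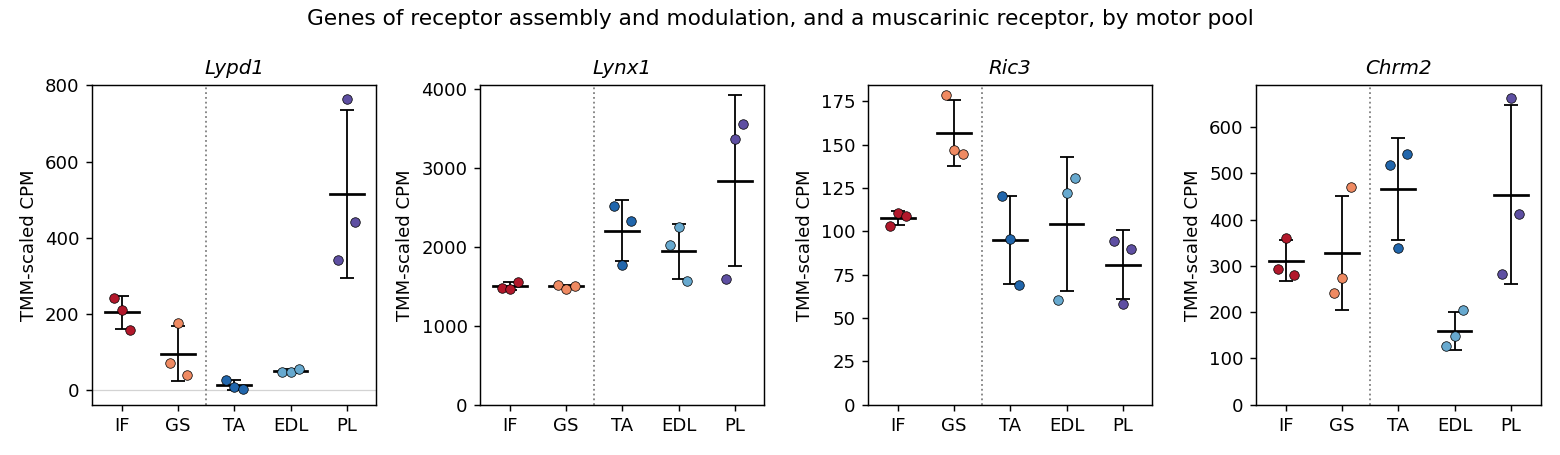
TMM-scaled CPM of Lypd1, Lynx1, Ric3 and Chrm2 in every library, with 1 point per library, a line at the pool mean and bars of 1 SD (n = 3); medial pools (IF, GS) stand left of the dotted line and lateral ones (TA, EDL, PL) right of it. Lypd1 lies between 341 and 763 CPM in PL and between 2.81 and 27.6 CPM in TA, and the medial libraries of Lynx1 lie between 1462 and 1557 CPM, a separation that RPKM does not show.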

How the data were processed

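Per the labels' protocols, RNA of laser-captured motor neurons was amplified with an Ovation kit, and Nextera libraries, which do not mark strand, were read from a single end. Whole-number counts for each gene were deposited by the authors without normalization. Reads were aligned with Bowtie 0.12.9 to mm9, per the submitters' processing notes, and no gene counter is named. The authors deposited RPKM made from the same counts. The deposited pairwise tables hold a ratio (fold of mean normalized counts) and adjusted p-values from DESeq, per the submitters' processing notes, with no version. IF columns are named for the foot and were matched by that word and number. The 16 values below 0, in 4 genes, have no stated reason, and these genes were left out.

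Counts were fitted with edgeR 4.0.16 (R 4.3.3, filterByExpr, TMM, 1 coefficient per pool, all 15 libraries). The code was first run on simulated data with less spread between libraries than these data have (common dispersion 0.789 here). That run does not show how well the fit performs on these libraries. Errors are SE from the log2 fold change and F. Adjusted p-values are Benjamini-Hochberg over 14340 genes. Low members have CPM over the same library sizes. Counting intervals are exact binomial, and PCR copies make them cover counting error only. No 2 libraries of a pool agreed within counting noise (lowest chi-square per degree of freedom 12.0). Genes named are the members, called genes of 3 lists or the 2 of smallest p, and the 4 nearest genes of the 3 highest members, except that 1 result is not reported here. The members and lists were chosen with earlier results of these data known. DESeq2 1.42.0, limma 3.58.1, other scaling, no filter, a replicate block and left-out libraries were tried.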

Additional observations from a re-analysis of the deposited data

How the results depend on the processing

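Counts of all genes called moved with the tool and the libraries. DESeq2 called 67 genes in IF against GS, 212 in TA against EDL (62 higher, 150 lower), 644 in PL against EDL, 1065 in PL against TA and 260 in medial against lateral. edgeR called 18, 13, 7, 33 and 58 in the same order. limma voom called 33, 55, 60 and 145 in IF against GS, TA against EDL, PL against TA and medial against lateral. It split the last into 115 higher and 30 lower, where edgeR had 27 higher and 31 lower. With no filter the counts were 76, 74, 355, 545 and 323 in the 5 comparisons. RLE size factors gave 55 in PL against TA. Leaving out 1 library at a time gave 7 to 39 in IF against GS, 2 to 32 in TA against EDL, 0 to 1778 in PL against EDL, 23 to 1800 in PL against TA and 22 to 600 in medial against lateral. The highest value of the last 3 came without PL 1, and 600 split into 410 higher and 190 lower. Leaving out IF 1 gave the lowest value in IF against GS, PL against TA and medial against lateral, and leaving out EDL 2 in TA against EDL and PL against EDL. Without both PL 2 and PL 3 the counts were 77 in IF against GS, 70 in TA against EDL and 2 in PL against EDL, with the lone PL library assumed to vary like the other pools. The number of subunit genes called was 0 in every setting of the 4 comparisons within a division, except PL against TA, where it was 0 to 1 when libraries were left out and 1 (Chrna4) without PL 1. With so few members and so few genes called by edgeR, these zeros say nothing of stability. Same-numbered libraries of different pools did not deviate together (r from -0.059 to 0.111 over 30 pairs, 1 of them over 0.1). Of 15 libraries, 6 were closest to their own number. No pairing by number was thus seen, but noise between the libraries of a pool could hide it. With a replicate block, 4 genes were called in TA against EDL, and 0 subunit genes in any comparison. Log2 differences of several genes changed sign. Chrnb2 in medial against lateral ranged from -0.26 to 0.06 with libraries left out, and Chrna4 in PL against EDL was -0.086 without PL 2 and PL 3. With libraries left out, Chrnb1 ranged from -4.08 to 1.37 in IF against GS, -4.88 to 2.21 in TA against EDL, -4.82 to 0.56 in PL against EDL, -6.35 to 4.76 in PL against TA and -0.53 to 3.17 in medial against lateral. Chrna1 ranged from -0.039 to 4.04 in IF against GS and from -2.11 to 0 in PL against EDL. Chrm5 ranged from -4.42 to 3.18 in PL against EDL and from 0 to 5.87 in PL against TA. Chrnb1 in TA against EDL was -0.055 with limma voom and -0.60 with the block, Chrnb1 in PL against EDL was 1.32 without PL 2 and PL 3, and Chrna1 in PL against EDL was 0.21 with limma voom. The cause was not tested. Lypd1 in PL against TA kept its call without any single library (4.81 to 6.44, adjusted p at most 0.0209 by edgeR).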
